A study of Mus musculus with 18 samples.

Results

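The comparison described here is activation of Med1 mutant splenic B cells with LPS and IL4, read as the contacts of the intronic enhancer Eμ of the immunoglobulin heavy chain locus (Igh). Its members are all 6 libraries labelled Med1 mutant that carry read counts, 3 from resting cells (day 0) and 3 from cells cultured for 2 days with LPS and IL4, of 18 libraries in the series. The series also holds 6 WT libraries of the same days, and 6 libraries of cells given LPS alone, not analysed here. The labels describe WT activated replicate 2 as cultured with anti-CD40 and IL4. The WT libraries set the size of the change beside that in WT cells. They also entered the main edgeR fits and the filter on mean reads. Each SE, p-value and call for the mutant in those fits thus rests in part on the spread between WT libraries. All were prepared by 4C-seq, in which chromatin is fixed with formaldehyde, cut and ligated, and every fragment joined to one chosen fragment, the bait, is amplified and sequenced. The cells were mature CD43-negative splenic B cells, fixed in every group, and the labels give neither the Med1 allele, nor a Cre line, nor the age of the mice, nor how many animals a library came from. Since 4C-seq reads genomic DNA, neither the cell type nor the loss of Med1 could be checked against expressed markers.

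Med1 is a subunit of Mediator, the complex that links factors bound at enhancers to RNA polymerase II at promoters. In mature B cells Eμ and the 3' regulatory region (3'RR), a cluster of enhancers downstream of Igha, act on a row of constant genes in the order Ighm, Ighd, Ighg3, Ighg1, Ighg2b, Ighg2c, Ighe and Igha. In class switch recombination a donor switch region beside Ighm is joined to an acceptor switch region before another constant gene and the DNA between them is deleted. LPS with IL4 directs this to Ighg1 and Ighe, and contact between Eμ, the 3'RR and the chosen acceptor is known to accompany it.

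The bait sat in Eμ between Ighm and the J segments, at mm10 chr12:113426025-113426048. It was amplified with the following inverse primers, shown because every contact below was read through them, both given 5′ to 3′ from the submitters' protocol. Its own end was the most read end of chromosome 12 in each of the 12 libraries.
bait primer 1: tctgtcctaaaggctctgaga
bait primer 2: gaacacagaagtatgtgtatgga
A contact is counted at a fragment end, the 24 bases next to a site of the first enzyme, DpnII, which cuts GATC. The RefSeq promoter of Crip1 (GRCm38.p6, the mm10 assembly, plus strand, chr12:113151762-113152061) shows such an end inside one of the windows that fell on activation. The capitals mark the GATC and the 24 bases read beside it, chr12:113151942-113151965.
Crip1 promoter: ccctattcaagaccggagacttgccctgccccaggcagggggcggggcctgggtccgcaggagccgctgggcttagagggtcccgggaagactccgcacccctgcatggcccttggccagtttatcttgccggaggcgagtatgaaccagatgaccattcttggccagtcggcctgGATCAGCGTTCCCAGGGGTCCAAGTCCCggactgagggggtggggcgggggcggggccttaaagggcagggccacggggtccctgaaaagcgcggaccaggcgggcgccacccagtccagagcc
Of 233 listed ends inside RefSeq promoter windows of chromosome 12, 233 lay next to GATC. At the Crip1 end itself the level was 386, 89.7 and 295 CPM (counts-per-million, scaled to the reads on chromosome 12 over 5 kb from the bait) in resting replicates 1, 2 and 3 and 212, 250 and 206 after activation, so the groups overlapped and a single end did not carry the change of its window.

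The resting libraries held 2470497 to 2959617 reads, and the activated ones 3378893, 21074434 and 2717529 in replicates 1, 2 and 3, so activated replicate 2 was the deepest by far. Counts had no molecular identifiers and are PCR products, so depth does not equal the number of molecules, and intervals from counts would cover counting error only. Bait neighbourhood reads, within 5 kb, were left out. Unless another scale is named, a share is a percentage of the chromosome 12 reads outside that neighbourhood and a level is in CPM of those reads, with the mean ± SD of the 3 libraries of a group. Changes on the log2 scale (activated over resting) are edgeR quasi-likelihood estimates ± SE, fitted over 12 libraries, with two-sided p-values adjusted by Benjamini-Hochberg within each table of features and a threshold of 0.05. The labels do not say that the 3 replicates were separate animals, so p-values measure only the spread between these samples. A set of 120 ends of chromosome 12 was picked by its counts on both days: at least 50 reads in mutant replicates 2 and 3, and fewer in replicate 1. It took 0.0288% and 0.0243% of chromosome 12 reads in resting and activated replicate 1, and 4.99% to 7.08% in the other mutant libraries. As the rule fixed this split on both days, it does not test whether the groups held the same mix. In WT libraries the set took 0.920% to 1.03% in replicates 1 and 2, and 4.47% and 5.94% in resting and activated replicate 3.

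The contacts of Eμ differed between resting and activated cells over much of the constant region. They fell over Ighd and the DNA between Ighd and Ighg3, rose over Ighg1 and the 3'RR, and fell over the flank beyond the 3'RR. The series holds no cells cultured for 2 days without a stimulus. A change called one on activation here can therefore not be told apart from one of time in culture. Of 21 elements of the locus, 12 passed the threshold (57.1% of those tested), 7 higher (33.3%) and 5 lower (23.8%), and the 3 resting and 3 activated values did not overlap at 16 (76.2%). The elements are not all separate, since the enhancer pieces of the 3'RR lie inside it and share its reads. Higher calls of the 3'RR and of its pieces are therefore not independent, and these counts are not counts of distinct regions. With all reads over 5 kb from the bait as the library size the median change of the 21 elements was 0.35 in place of 0.12. Elements differ in length, so shares are compared between conditions and not between elements. As contacts were read in bulk, a contact held by fewer cells and one made less often in each cell cannot be told apart.

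**Figure D1:**
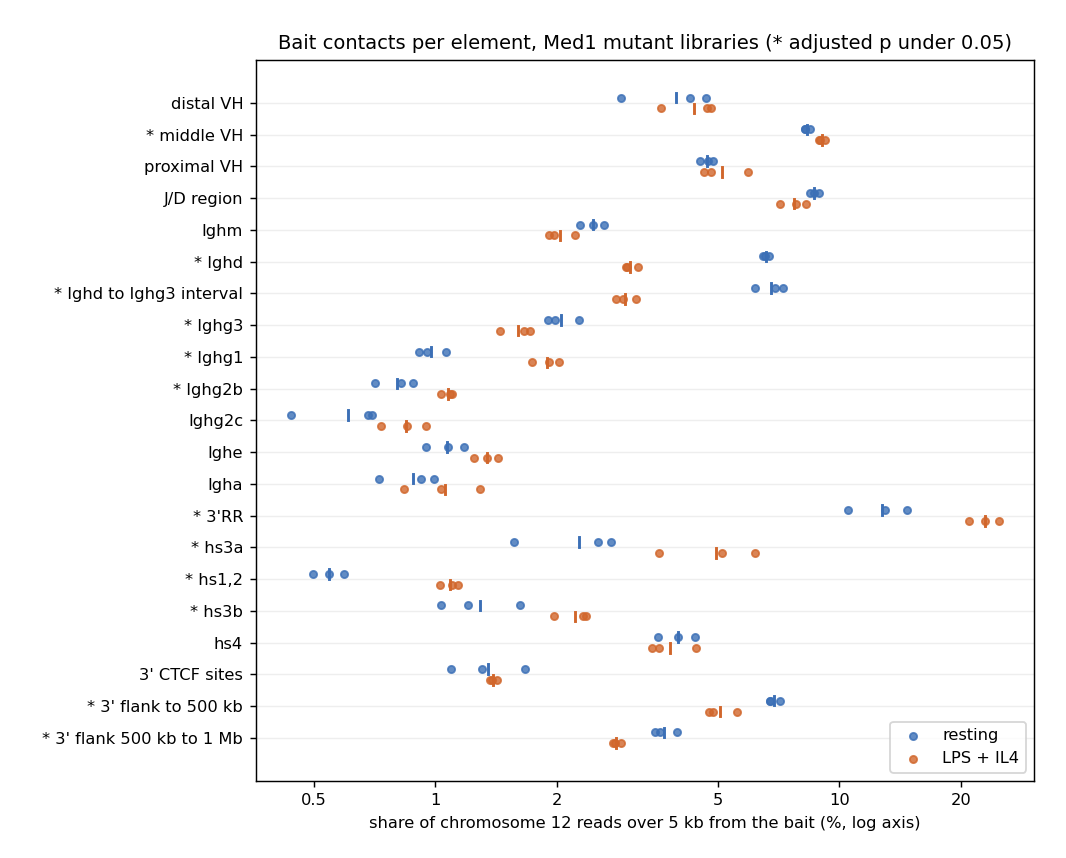
Share of chromosome 12 reads over 5 kb from the bait (x axis, percent, log scale) at each of 21 elements of Igh (y axis), with 1 point per Med1 mutant library and a tick at each group's mean. Resting and activated points are apart at 16 elements, and an asterisk marks the 12 that passed the edgeR test. The enhancer pieces of the 3'RR lie inside it and share its reads. Ighd fell from 6.57% to 3.04% and the 3'RR rose from 12.7% to 22.9%.

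Ighd, the constant gene of IgD, which resting mature B cells carry on their surface beside IgM, had the smallest adjusted p of the 21 elements. Its share was 6.70%, 6.54% and 6.48% in the resting libraries and 3.17%, 2.96% and 2.98% in the activated ones. The lowest resting value was thus above the highest activated one by far more than the spread within either group. The share fell from 6.57% ± 0.111 to 3.04% ± 0.116, by 1.11 ± 0.08 on the log2 scale (edgeR, adjusted p = 1.62e-09). The DNA from Ighd to the Ighg3 unit held 7.24%, 6.18% and 6.92% in resting cells and 3.14%, 2.92% and 2.80% in activated ones. It fell by 1.20 ± 0.09 (edgeR, adjusted p = 3.17e-09), again with no overlap. Reads of this kind do not show whether the DNA of this interval had been deleted by switching in part of the cells, and this was not tested. Both calls held in all 18 alternative settings, with the estimate for Ighd between -1.23 and -0.66 and that for the interval between -1.32 and -0.61.

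Ighm, beside the bait, could be read at only 9 ends because most of it lay inside the bait neighbourhood. Its share was 2.62%, 2.28% and 2.46% at rest and 2.22%, 1.97% and 1.91% after activation. The groups did not overlap, but the log2 change of -0.27 ± 0.12 missed the threshold (edgeR, adjusted p = 0.0675). The J/D region on the other side of the bait, which holds the joining and diversity segments, went from 8.67% ± 0.226 to 7.74% ± 0.561. The groups did not overlap there, but it did not pass either (log2 -0.17 ± 0.12, edgeR adjusted p = 0.234). Both misses depended on the fit. Ighm passed as lower in 6 of 17 alternatives and the J/D region in 5 of 18. With only the 6 mutant libraries fitted, Ighm and the J/D region both passed (edgeR, adjusted p = 0.0338 and 0.00961).

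Finer counts placed the fall. Of 399 windows of 10 kb from 1 Mb on the constant gene side to 3 Mb on the VH side, 12 passed (3.01%), 6 higher (1.5%) and 6 lower (1.5%), all with no overlap between the groups, against 65 of 399 (16.3%) without overlap in all. Of the 6 lower windows, 5 were neighbours and together ran from chr12:113366025 to 113416024, from the upstream end of the Ighg3 unit into Ighd. The deepest fall was at chr12:113396025-113406024, in the interval below Ighd. There the level was 42026, 36497 and 39067 CPM at rest and 15730.1, 14940.0 and 14133 after activation, a log2 change of -1.39 ± 0.11 (edgeR, adjusted p = 4.25e-08). The next window toward the bait, chr12:113406025-113416024, which holds Ighd, went from 67767 ± 1253 to 30105 ± 1299 (log2 -1.17 ± 0.08). Toward Ighg3 the change became smaller from window to window. It was -1.17 at chr12:113386025-113396024, -0.87 at chr12:113376025-113386024 and -0.52 at chr12:113366025-113376024.

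**Figure D2:**
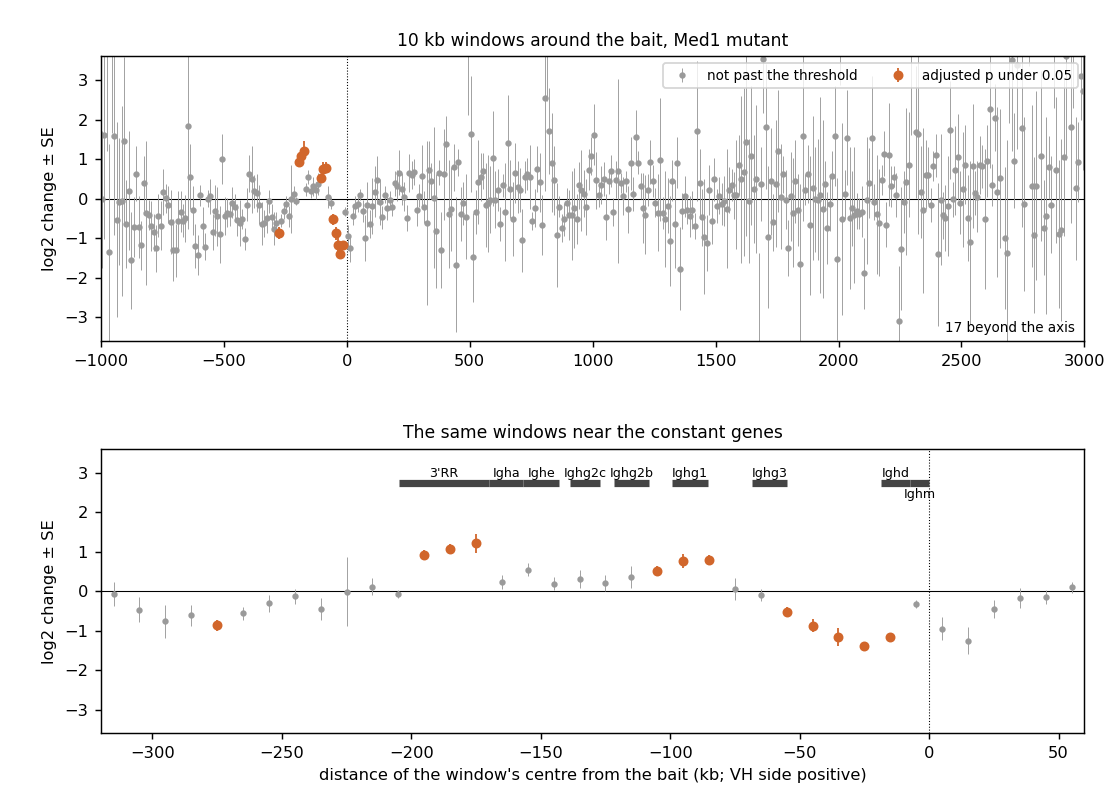
Log2 change on activation ± SE (y axis) of each 10 kb window against the distance of its centre from the bait (x axis, kb, VH side positive), over the tested span above and near the constant genes below, where bars mark the elements. Orange windows passed the edgeR test. The lower panel shows 5 neighbouring windows that fell beside Ighd and 2 groups of 3 that rose, at Ighg1 and in the 3'RR.

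Single fragment ends were compared where reads were densest. Of 911 ends within 250 kb on the constant gene side and 50 kb on the VH side, 35 passed (3.84%), 16 higher (1.76%) and 19 lower (2.09%), and the groups did not overlap at 207 (22.7%), all 35 called ends among them. Of the 19 lower ends, 11 lay in Ighd and 8 in the interval beside it. The end at chr12:113405953-113405976 was read at 5062, 5895 and 6393 CPM at rest and at 1055, 2186 and 989.9 after activation (log2 -2.04 ± 0.30, edgeR adjusted p = 0.00695). In Ighd, the end at chr12:113411070-113411093 was read at 1173, 965 and 1620.2 at rest and at 207, 252 and 389 after activation (log2 -2.15 ± 0.40, edgeR adjusted p = 0.0150). Of the ends tested, 0 of 35 in Ighd and 13 of 110 in the interval had an estimate above 0, against 483 of 911 overall. The count of called ends depended on the fit: 1 end passed when only the 6 mutant libraries were fitted, and 3 passed without mutant replicate 1 on both days.

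Beside these falls, 1 end of the interval was among the 35 in the opposite direction. The end at chr12:113376503-113376526 was read at 0, 1.65 and 0 CPM at rest and at 35.9, 55.4 and 163 after activation. An end in the Ighe unit, chr12:113281684-113281707, was at 0 in all 3 resting libraries, which allows up to 2.953, 2.47 and 2.66 CPM there (3 reads), and at 57.4, 197 and 69.1 after activation. The fitted changes of these 2 ends rest on a prior for zero counts and are not given as folds.

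Among the acceptors, Ighg1, the IgG1 constant gene and the main target of IL4, rose most. Its unit (the gene with up to 10 kb upstream, which holds its promoter and switch region) held 0.956%, 0.910% and 1.07% at rest and 2.02%, 1.74% and 1.91% after activation. All activated libraries lay above all resting ones, and the share rose from 0.977% ± 0.0802 to 1.89% ± 0.143, a log2 change of 0.95 ± 0.13 (edgeR, adjusted p = 1.35e-05). The 3 windows over and below it passed the test. The level at chr12:113336025-113346024, upstream of the gene, was 7349, 6834 and 8773 at rest and 12729.7, 13006 and 13851 after activation (log2 0.79 ± 0.13). The window of the gene body, chr12:113326025-113336024, went from 6611 ± 693 to 11203 ± 2113 (log2 0.76 ± 0.18), and the one toward Ighg2b, chr12:113316025-113326024, from 16263 ± 1549.7 to 23368 ± 2289.9 (log2 0.52 ± 0.11).

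The rise at Ighg1 was spread over many ends, with 70 of 82 tested estimates above 0. The 2 ends that passed alone lay side by side upstream of the gene. At chr12:113339700-113339723 the level was 277, 102 and 189 at rest and 1295, 1109 and 696 after activation (log2 2.45 ± 0.48, edgeR adjusted p = 0.0174). Its neighbour at chr12:113339672-113339695 rose from 182 ± 118 to 978 ± 227 (log2 2.42 ± 0.53). These calls held in 11 and 10 of 18 alternatives. The part of the 93 listed ends of Ighg1 that was covered by at least 1 read went from a mean of 68.1% to 83.2%. With reads replaced by covered ends the estimate for Ighg1 was -0.32 (edgeR, adjusted p = 0.0693), and covered ends of chromosome 12 as a whole went from 7615 ± 450.3 to 11761 ± 3641.

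Ighe, the IgE constant gene and the other target of IL4, did not pass. Its share was 0.948%, 1.07% and 1.18% at rest and 1.25%, 1.43% and 1.34% after activation. The groups did not overlap. The log2 change was 0.33 ± 0.14 (edgeR, adjusted p = 0.0514), and 10 of 18 alternatives put it past the threshold. The IgG2b gene Ighg2b rose from 0.805% ± 0.0877 to 1.07% ± 0.0342 (log2 0.42 ± 0.15, edgeR adjusted p = 0.0244), a call that was lost without any one of 3 libraries (resting replicate 1 or 2, or activated replicate 2), with adjusted p of 0.0555 to 0.117. Values for the IgG2c gene Ighg2c went from 0.607% ± 0.145 to 0.844% ± 0.107 (log2 0.48 ± 0.24, edgeR adjusted p = 0.0908) and those for Igha, the IgA gene, from 0.881% ± 0.139 to 1.05% ± 0.228 (log2 0.26 ± 0.18, edgeR adjusted p = 0.232). Neither is a call, and at Igha the groups overlapped.

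Ighg3, the IgG3 gene and the acceptor nearest the donor, moved the other way. It held 2.27%, 1.90% and 1.98% at rest and 1.66%, 1.72% and 1.45% after activation, and fell by 0.35 ± 0.13 (edgeR, adjusted p = 0.0244). This call rested on single libraries: without resting replicate 1 the change was -0.27 (edgeR, adjusted p = 0.117) and without activated replicate 3 it was -0.28 (adjusted p = 0.105). With all reads as the library size it was -0.13 (adjusted p = 0.330).

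The 3'RR, whose enhancers drive transcription of the constant genes, gained more of the reads than any other of the 21 elements. The share was 10.5%, 14.7% and 13.0% in the resting libraries and 20.9%, 22.96% and 24.8% in the activated ones. The groups were apart, and the mean rose from 12.7% ± 2.11 to 22.9% ± 1.93, a log2 change of 0.84 ± 0.14 (edgeR, adjusted p = 5.86e-05). All 3 windows inside it that passed rose. They were chr12:113246025-113256024 beside Igha (50932 ± 13931 to 118442 ± 24600.5, log2 1.22 ± 0.24), chr12:113236025-113246024 (12741 ± 857 to 26822 ± 1383, log2 1.07 ± 0.13) and chr12:113226025-113236024 (23892 ± 3740.5 to 45467 ± 1159, log2 0.93 ± 0.11).

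The enhancers of the 3'RR were taken as pieces of 4 kb set at fixed distances beyond Igha (4, 16, 29 and 33 kb), so their positions are approximate. The piece at hs1,2, the central enhancer, held 0.498%, 0.594% and 0.547% at rest and 1.14%, 1.03% and 1.10% after activation (log2 0.99 ± 0.19, edgeR adjusted p = 3.27e-04). The pieces at hs3a and hs3b, inverted and nearly identical copies on either side of hs1,2, rose by 1.13 ± 0.30 and 0.78 ± 0.18 on the log2 scale (edgeR, adjusted p = 0.00930 and 0.00119). How reads that match both copies were treated is not given in the sources used here, so the split between these 2 pieces is uncertain. The hs3a call was lost without resting replicate 1 (log2 0.92, edgeR adjusted p = 0.0625).

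The outermost piece, hs4, held 3.56%, 4.40% and 3.99% at rest and 4.41%, 3.58% and 3.43% after activation. The groups overlapped and the log2 change of -0.07 ± 0.11 did not pass (edgeR, adjusted p = 0.582). One of its ends, named after its values were seen, did pass: chr12:113224328-113224351 rose from 8478 ± 507 to 12008 ± 702 (log2 0.50 ± 0.08, edgeR adjusted p = 0.00806). Beyond hs4, the 20 kb that hold the 3' CTCF sites, where the insulator protein CTCF bounds the locus, held 1.35% ± 0.290 and 1.39% ± 0.0306 (log2 0.04 ± 0.16, edgeR adjusted p = 0.826).

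Reads of the 3'RR were concentrated at few ends in both groups. Of its 162 listed ends, 9 to 11 held 50% of its reads in each of the 6 libraries. Of 137 tested, 118 had an estimate above 0 and 12 passed, each higher. The end at chr12:113249001-113249024, named after its values were seen, had the smallest adjusted p among the 35 (3578 ± 424 to 10359 ± 1100.0, log2 1.53 ± 0.11, edgeR adjusted p = 8.30e-05). With each library's ends capped at its 99th percentile, which took 39.9% to 47.3% of the region's reads at rest and 66.3% to 76.3% after activation, the log2 change was 0.04 (edgeR, adjusted p = 0.734), and at hs3a, hs1,2 and hs3b it was 0.09, 0.16 and -0.16, none past the threshold. The covered part of its ends went from 76.3% to 86.2%, and as a share of all covered ends of chromosome 12 the 3'RR had a log2 change of -0.43 (edgeR, adjusted p = 0.0125).

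Beyond the CTCF sites contacts fell. The 3' flank up to 500 kb from the bait held 7.15%, 6.75% and 6.73% at rest and 5.58%, 4.86% and 4.77% after activation, a fall of 0.44 ± 0.08 on the log2 scale (edgeR, adjusted p = 1.38e-04) with no overlap. From 500 kb to 1 Mb the share went from 3.69% ± 0.248 to 2.81% ± 0.0658 (log2 -0.39 ± 0.10, edgeR adjusted p = 0.00183), a call that was lost with all reads as the library size (log2 -0.17, edgeR adjusted p = 0.133) and with capped ends (-0.21, adjusted p = 0.0522). The sixth lower window, chr12:113146025-113156024, lay here and holds Crip1, whose promoter is printed above, and the gene model Gm30599. It was read at 10392, 11246 and 9328 CPM at rest and at 5754, 5498 and 5735 after activation (log2 -0.87 ± 0.15, edgeR adjusted p = 0.00116).

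Gene by gene, the fall of the flank was shared. Reads were summed within 50 kb of each start of 679 protein-coding genes of chromosome 12, of which 659 were tested and 39 passed (5.92%), 8 higher (1.21%) and 31 lower (4.70%), and the groups did not overlap at 146 (22.2%). Of 20 genes within 500 kb beyond the CTCF sites, 7 fell and 0 rose, 19 had an estimate below 0, 15 showed no overlap, and the median log2 change was -0.42, against -0.21 over all 659 genes. With TMM factors 8 genes passed higher and 11 lower, and with all reads as the library size 9 and 7. These sums overlap between neighbours and are not independent. Crip2, a small LIM domain protein, went from 42732 ± 1801 to 29865 ± 3012 (log2 -0.52 ± 0.09, edgeR adjusted p = 0.00103). Its relative Crip1 went from 41697 ± 2819 to 29435 ± 3019 (log2 -0.50 ± 0.09), and Mta1, a subunit of the NuRD chromatin remodelling complex, from 21913 ± 1108 to 15618 ± 1193 (log2 -0.49 ± 0.12). The exception was Tmem121, the gene of this list nearest the 3'RR, whose 50 kb reach into it (log2 0.12 ± 0.07, edgeR adjusted p = 0.451).

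On the VH side, where the variable segments lie, changes were small. The middle VH segments held 8.22%, 8.46% and 8.23% at rest and 8.92%, 8.98% and 9.19% after activation, a rise of 0.12 ± 0.05 (edgeR, adjusted p = 0.0287). That call was lost in 9 of 18 alternatives, among them TMM scaling (log2 0.09, edgeR adjusted p = 0.196) and leaving out any one of 4 libraries. The proximal segments went from 4.70% ± 0.178 to 5.13% ± 0.721 and the distal ones from 3.94% ± 0.939 to 4.37% ± 0.662. Both pairs of groups overlapped, and neither passed (edgeR, adjusted p = 0.261 and 0.391).

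Over the whole chromosome, 10 zones of distance from the bait were compared, and 4 passed (40.0%), 2 higher (20%) and 2 lower (20%). The zone from 5 to 250 kb on the constant gene side, which holds all elements from Ighm to the 3'RR, took 39.0%, 41.9% and 40.6% at rest and 44.0%, 44.9% and 46.2% after activation (log2 0.15 ± 0.04, edgeR adjusted p = 0.00481). The next zone, 250 kb to 1 Mb, fell from 9.75% ± 0.239 to 7.20% ± 0.339 (log2 -0.44 ± 0.08, edgeR adjusted p = 2.99e-04). Near the bait the sum therefore rose while its parts moved in both directions. The rise of the near zone was not past the threshold under TMM scaling (log2 0.14, edgeR adjusted p = 0.166), and with capped ends the estimate was -0.0627 (adjusted p = 0.414). Counted as covered ends the zone was called in the opposite direction (log2 -0.40, edgeR adjusted p = 5.89e-04).

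The far ends of the chromosome moved in opposite directions. The zone over 30 Mb on the constant gene side, toward the centromere, held 11.7%, 9.91% and 10.2% at rest and 7.33%, 7.07% and 5.88% after activation. No activated library reached a resting one, and the fall was 0.65 ± 0.11 on the log2 scale (edgeR, adjusted p = 1.36e-04). Counted as covered ends the change was -0.16 (edgeR, adjusted p = 0.0621). The zone over 3 Mb on the VH side, the telomeric end of the chromosome beyond the VH genes, held 0.968%, 0.700% and 1.003% at rest and 1.28%, 1.75% and 2.13% after activation. It rose by 0.95 ± 0.17 (edgeR, adjusted p = 2.99e-04), a call kept in all 18 alternatives, with estimates of 0.77 to 1.19. The 6 zones between, from 1 to 30 Mb on the constant gene side and up to 3 Mb on the VH side, had log2 changes between -0.13 and 0.40, none past the threshold.

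**Figure D3:**
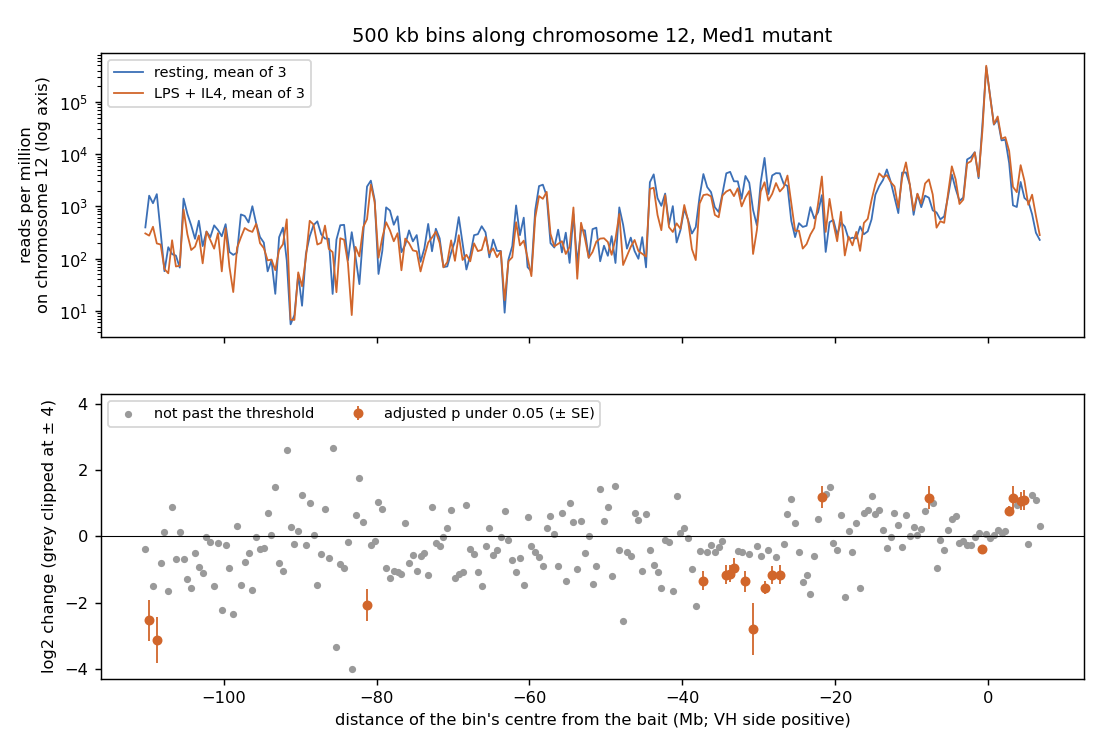
CPM per 500 kb bin of chromosome 12 (top, log axis, mean of 3 libraries per group) and log2 change on activation (bottom, with ± SE for the bins that passed the edgeR test, in orange) against the distance from the bait in Mb, VH side positive. Of 235 bins 13 passed lower, 9 of them between 27.25 and 37.25 Mb away, and 6 passed higher, 4 of them on the telomeric side.

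Bins of 500 kb gave these zones more detail. Of 235 bins, 19 passed (8.09%), 13 lower (5.53%) and 6 higher (2.55%), none with overlap between the groups. In all, the groups did not overlap at 64 of 235 bins (27.2%), and the median change of all bins was -0.26. A stretch of 21 bins from chr12:75926025 to 86426024, whose limits were set after the values were seen, held 9 of the 13 lower bins and had an estimate below 0 in 21 of 21. The bin with the smallest adjusted p, chr12:83926025-84426024, carries a cluster of acyl-CoA thioesterase genes (Acot1 to Acot6) and was read at 8856, 8389 and 8194 CPM at rest and at 3061, 3036 and 2596 after activation (log2 -1.55 ± 0.20, edgeR adjusted p = 3.44e-06). The bin of Esr2, an oestrogen receptor gene, and Akap5 at chr12:75926025-76426024 went from 4161 ± 1054 to 1647 ± 185 (log2 -1.34 ± 0.28). That of Map3k9 and the Mediator gene Med6 at chr12:81426025-81926024 went from 3821 ± 993 to 1488 ± 379.7 (log2 -1.36 ± 0.31).

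Further bins were named by the same rule. Near the centromere, the bin of Dnmt3a, a DNA methyltransferase gene, at chr12:3426025-3926024 went from 1604 ± 648 to 276 ± 164, and that of Ncoa1, a nuclear receptor coactivator gene, at chr12:4426025-4926024 from 1716 ± 275 to 195 ± 219.8. The bin of Pik3cg, a PI3 kinase subunit gene, at chr12:31926025-32426024 went from 2398 ± 445 to 568 ± 202 (log2 -2.08 ± 0.49, edgeR adjusted p = 0.00647). Inside the stretch of 21 bins, that rule also named chr12:82426025-82926024 with Rgs6 (log2 -2.80 ± 0.77), the largest fall of the stretch, and chr12:84926025-85426024 with Mlh3 (log2 -1.17 ± 0.27). These sums are small, and without activated replicate 3 the test kept 3 of the 19 bins.

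Higher bins were fewer. The bin of Sel1l at chr12:91426025-91926024 rose from 1642 ± 329 to 3734 ± 356 (log2 1.19 ± 0.33, edgeR adjusted p = 0.0174). Of the 9 bins from chr12:115926025 to the telomere 4 rose and 8 had an estimate above 0. Among them the bin at chr12:116426025-116926024, which holds Ptprn2 and the end of Ncapg2, was read at 1092, 787 and 1263 at rest and at 1721, 2189 and 3183 after activation (log2 1.17 ± 0.36, edgeR adjusted p = 0.0357). This call was lost in 7 of 19 alternatives.

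With scaling to all reads in place of those on chromosome 12 the median bin moved from -0.26 to -0.04, and 16 bins passed higher and 11 lower. TMM factors gave 18 higher and 11 lower, and covered ends 25 and 14. The named bins at chr12:83926025-84426024 and chr12:75926025-76426024 were past the threshold in all 19 alternatives. By gene content, bins over 3 Mb from the bait with 5 or more genes had a median log2 change of -0.42 (61 bins, 8 called lower and 1 higher), those with 1 to 4 genes -0.29 (113 bins, 4 and 4) and those with none -0.29 (49 bins, 0 and 0).

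Some of the largest changes of single gene neighbourhoods are given next, for 4 protein-coding genes chosen after their values were seen. Around Sel1l, an adaptor of endoplasmic reticulum protein degradation, the level was 139.8, 34.6 and 71.9 CPM at rest and 1701, 1670.2 and 1152 after activation. That is a log2 change of 4.20 ± 0.66 (edgeR, adjusted p = 3.17e-04). At rest 4, 3 and 2 ends of 91 were covered and 1 end held 66.7% to 85.2% of the reads. After activation 27, 43 and 32 ends were covered and the most read one held 14.6% to 23.04%. The call held in 19 of 19 alternatives. Around Ncapg2, a subunit of condensin II, the level rose from 617 ± 122 to 2895 ± 787 (log2 2.23 ± 0.35, edgeR adjusted p = 3.17e-04), with 11 to 15 covered ends at rest and 39 to 71 after activation.

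In the other direction, Fos, the immediate early transcription factor gene, was read at 2546, 1671 and 1853 CPM at rest and at 498, 513 and 886 after activation (log2 -1.68 ± 0.35, edgeR adjusted p = 0.00405). Around Mideas, a subunit of the MiDAC histone deacetylase complex that lies in the Acot bin above, the level fell from 3864 ± 275 to 1065 ± 135 (log2 -1.86 ± 0.24, edgeR adjusted p = 1.98e-05). Of 20 genes of chromosome 12 listed for a role in B cells, 4 fell (Fos, Crip1, Crip2 and Mta1) and 0 rose, with a median of -0.43, against 31 lower of 659 (4.70%) and a median of -0.21 over all genes. The list was chosen with earlier results of these data known, so it does not test B cell genes as a class. Crip1, Crip2 and Mta1 were already counted among the genes of the flank, a list that shares 7 members with this one. Batf, a factor needed for class switching that lies near Fos, was read at 339, 123 and 855 at rest and at 746, 1585 and 989 after activation. The groups overlapped and the test made no call (log2 1.33 ± 0.57, edgeR adjusted p = 0.192). Nor did Akt1, the kinase downstream of PI3 kinase, pass (log2 -0.53 ± 0.18, adjusted p = 0.0955), or Gpr132, a G protein-coupled receptor gene (log2 -0.41 ± 0.13, adjusted p = 0.0556).

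Reads on other chromosomes (trans reads) became a smaller part of the library. Their share of all reads over 5 kb from the bait was 56.1%, 56.0% and 53.9% in the resting libraries and 48.6%, 47.9% and 46.6% in the activated ones. Every activated library lay below every resting one, and the mean went from 55.3% ± 1.26 to 47.7% ± 1.05, a difference of -7.62 percentage points. An exact two-sided permutation test gave p = 0.1, the smallest that 3 against 3 allows. Without the deep activated replicate 2 the difference was -7.71 points. In the same libraries the bait neighbourhood took 6.39% ± 0.301 of all reads at rest and 8.07% ± 0.737 after activation.

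The size of this difference depended on what was counted. With reads capped it was -4.84 points. As a share of covered ends it was 83.9% ± 0.606 at rest and 83.6% ± 2.21 after activation at full depth (exact permutation p = 0.8). With every library thinned to 2312103 reads it was 83.7% ± 0.489 and 81.8% ± 0.401 (difference -1.88 points, exact permutation p = 0.1). Thinned libraries covered 7075 to 8053 ends of chromosome 12 at rest and 8139 to 12001 after activation (exact permutation p = 0.1).

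**Figure D4:**
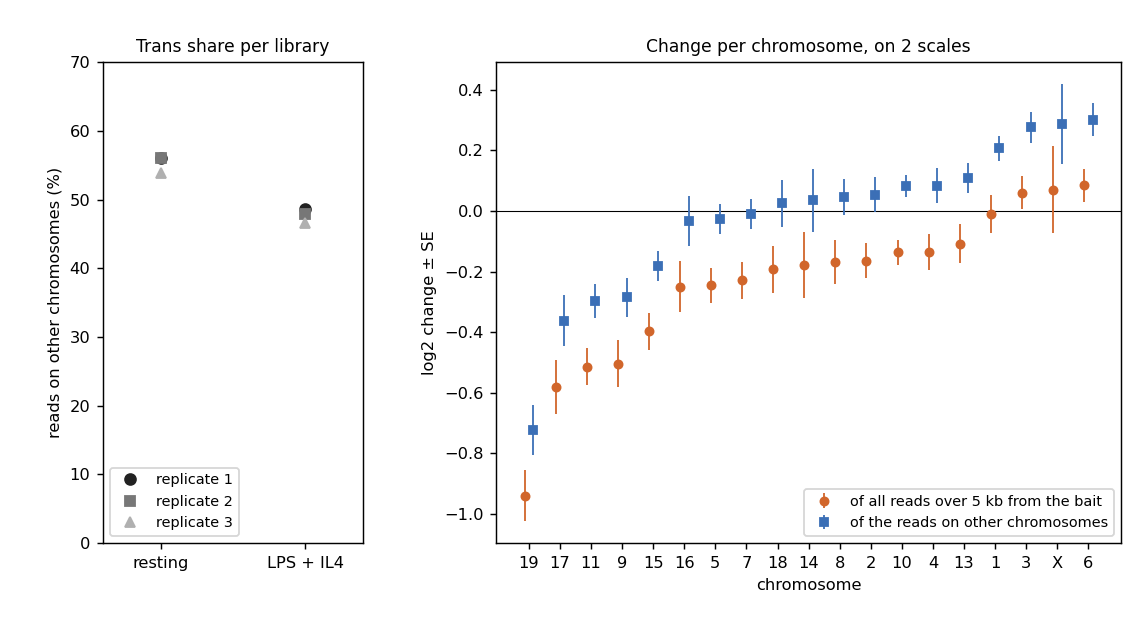
Left, share of reads on other chromosomes in each of the 6 Med1 mutant libraries (y axis, percent, from 0), with the 3 resting values between 53.9% and 56.1% and the 3 activated ones between 46.6% and 48.6%. Right, log2 change ± SE of each chromosome on activation, as a share of all reads over 5 kb from the bait (circles) and of reads on other chromosomes (squares). Chromosome 19 is the lowest on both scales.

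The fall was uneven between chromosomes. As shares of all reads over 5 kb from the bait, 13 of 19 chromosomes fell and 0 rose (68.4% called). As shares of trans reads alone, which sets the overall fall to 0, 8 of 19 passed (42.1%), 5 lower and 3 higher. Chromosome 19, a small and gene-rich chromosome, held 2.22%, 2.47% and 2.19% of all reads at rest and 1.22%, 1.27% and 1.10% after activation. It fell by 0.94 ± 0.08 on the log2 scale of all reads (edgeR, adjusted p = 1.83e-20) and by 0.72 ± 0.08 on that of trans reads. Chromosomes 17, 11, 9 and 15 also fell on both scales, by 0.58, 0.51, 0.50 and 0.40 of all reads and by 0.36, 0.30, 0.28 and 0.18 of trans reads, and these 5 were past the threshold in all 18 alternatives.

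Chromosomes 1, 3 and 6 rose as shares of trans reads (log2 0.21, 0.28 and 0.30) while as shares of all reads they had changes of -0.01, 0.06 and 0.08, none past the threshold. For chromosome 1 the estimate thus changed sign with the scale. Across the 19 chromosomes, the change as a share of all reads correlated with genes per Mb at r = -0.64 (Pearson) and rho = -0.59 (Spearman), and with chromosome length across the 18 autosomes at r = 0.71 and rho = 0.70. These are descriptions over chromosomes that share the same 6 libraries and a single total, and gene density and length were not told apart.

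In the libraries labelled WT, the trans share differed by -8.88 points between the groups, from 55.4% ± 0.545 to 46.5% ± 1.30. In the labels, WT activated replicate 2 is described as cultured with anti-CD40 and IL4, and WT libraries are titled WTKO beside the genotype WT. The difference between the genotypes in the change on activation was tested for each table with edgeR. It passed at 0 of 21 elements (2 at an unadjusted p under 0.05, and 0 with DESeq2), 0 of 10 zones (0 unadjusted, and 2 with DESeq2) and 0 of 19 chromosomes (2 unadjusted, and 0 with DESeq2). It passed at 0 windows (11 unadjusted, and 2 with DESeq2), 0 bins (22 unadjusted, and 0 with DESeq2), 0 fragment ends (48 unadjusted, and 12 with DESeq2) and 0 gene neighbourhoods (30 unadjusted, and 2 with DESeq2). At Ighe the change was 0.33 ± 0.14 in mutant and 0.85 ± 0.14 in WT cells, a difference of -0.52 ± 0.20 (edgeR, adjusted p = 0.366). At Ighg1 it was 0.95 ± 0.13 and 1.33 ± 0.14, a difference of -0.38 ± 0.19 (adjusted p = 0.406), and at the 3'RR 0.84 ± 0.14 and 0.59 ± 0.14, a difference of 0.26 ± 0.19 (adjusted p = 0.691). These misses do not show that the genotypes respond alike.

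**Figure D5:**
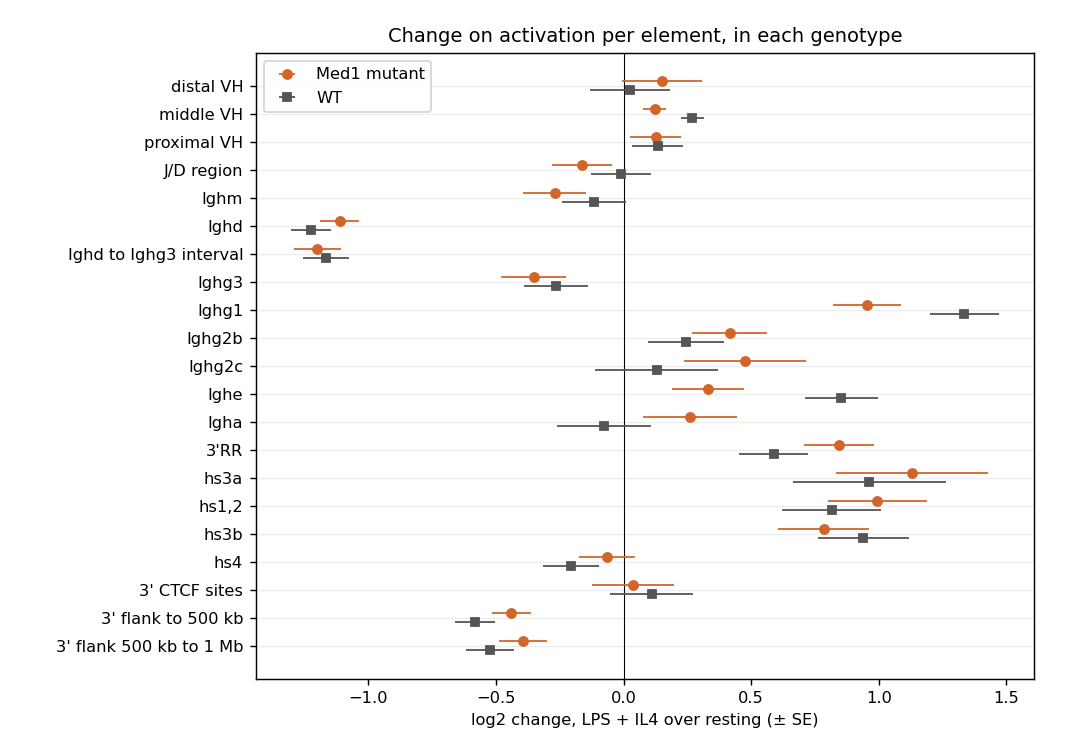
Log2 change on activation ± SE (x axis) at each of 21 elements (y axis) in Med1 mutant cells (circles) and WT cells (squares), 3 libraries per group. The estimates for Ighe are 0.33 and 0.85 and those for Ighd -1.11 and -1.23. No difference between the genotypes passed the edgeR test at the 21 elements.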

How the data were processed

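4C-seq libraries (DpnII, then Csp6I) of Med1 mutant and WT splenic B cells, 3 per group, were taken by the genotype and stage in the labels. Per the submitters' processing notes reads were mapped with Bowtie to mm10, and mapping parameters and filters are not given in the sources used here. The authors deposited raw read counts per 24 bp fragment end, with no normalization and without ends at 0. The 6 LPS files hold coordinates only and were not used.

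Counts were summed over 21 elements, 10 distance zones, windows of 10 kb, bins of 500 kb, single ends, 50 kb around gene starts, and chromosomes, keeping windows, bins, genes and ends with a mean of at least 10 reads. Gene starts came from RefSeq promoter tables for 588 of 679 genes and otherwise from gene limits. Fits used edgeR 4.0.16 in R 4.3.3 (robust quasi-likelihood, 12 libraries, no TMM factors), with library size the chromosome 12 reads over 5 kb from the bait, or all such reads for chromosomes. Named windows, ends and bins are up to 10 per table with the largest absolute change among those called without overlap. Zones and elements are all reported. Members and lists were chosen with earlier results of these data known.

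Alternatives were DESeq2 1.42.0, TMM, other scalings, window sizes, bait limits, covered ends, capped ends, thinning, only mutant libraries, a block on replicate number, and fits without each mutant library. Fits without each WT library were made only for the difference between genotypes. The alternatives counted for mutant calls thus include none without a single WT library. Leaving out mutant replicate 1 on both days, leaving out the 120 unevenly read ends, gene neighbourhoods, and trans reads as library size were added after seeing the data. Fits of the mutant contrast were tested on simulated data with the library sizes and fitted spread of these libraries. A log2 change of 1 was called at 0.735% of fragment ends, 7.94% of gene neighbourhoods, 15.9% of windows and 20.5% of bins. It was called at 95.2% of elements and at 100% of zones and of chromosomes. Features without a change were called at 0% to 4.29%. A miss at an end, gene, window or bin therefore does not show that nothing changed there. Sums and exact tests used pandas 2.3.3, numpy 2.4.6 and scipy 1.17.1 in Python 3.11.15, and plots matplotlib 3.10.9.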

Additional observations from a re-analysis of the deposited data

How the results depend on the processing

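Of the 21 elements, Ighd, the interval to Ighg3 and the 3' flank to 500 kb were past the threshold in all 18 alternatives. Counting covered ends in place of reads reversed Ighg1 (-0.32), Ighg2b (-0.45), the 3'RR (-0.43), hs3a (-0.60), hs1,2 (-0.31) and hs3b (-0.62), and the windows starting at 113246025 (-0.47), 113236025 (-0.40), 113226025 (-0.34), 113336025 (-0.27) and 113326025 (-0.41). The same setting reversed the constant gene side zones at 10 to 30 Mb (0.19), 1 to 3 Mb (0.21) and 5 to 250 kb (-0.40). Capping reversed hs3b (-0.16) and that last zone (-0.0627). Covered-end estimates are shares of all covered ends of chromosome 12, whose mean number went from 7615 to 11761. At full depth the covered part of the listed ends itself rose at Ighg1 (68.1% to 83.2%), Ighg2b (74.3% to 83.3%) and the 3'RR (76.3% to 86.2%). It also rose at hs3a (85.9% to 87.2%) and hs1,2 (74.4% to 92.3%), and was 81.5% in both groups at hs3b. The cause of the reversals was not tested.

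Counts of calls moved as follows. Of windows (12), DESeq2 called 25, covered ends 0 and capped ends 7. Of fragment ends (35), DESeq2 called 99, capped ends 13, mutant libraries alone 1, the fits without 1 library 20 to 28, and the fit without mutant replicate 1 on both days 3. Covered ends could not be fitted there, where each end is 0 or 1. Of bins (19), 250 kb bins gave 12, DESeq2 34, TMM 29, covered ends 39, the fits without 1 library 3 to 18, and without replicate 1 on both days 11. Of zones (4), all reads as library size and covered ends each gave 7. Of gene neighbourhoods (39), DESeq2 called 60, TMM 19, all reads 16, covered ends 129, capped ends 23, mutant libraries alone 25, the fits without 1 library 15 to 27, and without replicate 1 on both days 9. Of chromosomes (13), DESeq2, TMM and trans reads as library size each called 8, and covered ends 7.

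Scaling reversed chromosomes 1, 2, 4, 8 and 10, which were at 0.21, 0.0515, 0.0823, 0.0470 and 0.0798 with DESeq2, at 0.21, 0.0532, 0.0830, 0.0467 and 0.0807 with trans reads as library size, and at 0.18, 0.0249, 0.0552, 0.0190 and 0.0524 with TMM. Chromosome 18 was at 0.0239 with DESeq2 and 0.0248 with trans reads. With covered ends chromosomes 2, 4, 10 and 18 were at 0.0332, 0.0171, 0.00635 and 0.0682. The trans share differed by -4.84 points with capped ends and by -0.288 with covered ends, and the covered-end share by -1.52 to 0.622 without 1 library, with the sign turned at 0.0298, 0.0319 and 0.622. Differences between genotypes passed at 2 zones with DESeq2, 2 without WT activated replicate 3 and 1 with the block, at 1 chromosome without mutant resting replicate 1, at 3 bins without WT resting replicate 1, and at 1 fragment end without WT resting replicate 2 and 1 without WT resting replicate 3. DESeq2 also passed 12 fragment ends, 2 windows and 2 gene neighbourhoods.

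The labels do not say that equal replicate numbers pair the libraries. Deviations of same-numbered libraries correlated at 0.27, 0.15 and 0.096 over windows and -0.04, -0.09 and 0.09 over bins. Those of libraries with different numbers correlated at -0.20 to 0.14 over windows and -0.20 to 0.21 over bins. The rule for the 120 ends did not use the WT libraries. There replicate 3 took 4.47% at rest and 5.94% after activation, against 0.920% to 1.03% in replicates 1 and 2. With the replicate number as a block, 16 elements, 7 zones, 14 windows, 12 fragment ends, 20 bins, 36 gene neighbourhoods and 12 chromosomes passed, and the trans share differed by -7.62 points. Among those elements were Ighm, Ighe, the J/D region and the distal VH segments, which missed in the main fit (block fit with edgeR, adjusted p = 0.0191, 0.0326, 0.00647 and 0.0399).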
